A study of Homo sapiens with 46 samples.

Results

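The small nucleolar RNA host genes are transcription units whose introns carry small nucleolar RNAs (snoRNAs). Here they were taken as every gene of the count table with a symbol of the form SNHG followed by a number, together with GAS5, ZFAS1 and DANCR. This gave 31 of the 62756 genes of the table, and 29 of the 31 passed the low-count filter of the test. SNHG27, with 1 count in all libraries together, and SNHG28, with 29 counts, did not. The genes were measured by total RNA sequencing after ribosomal RNA depletion in 46 libraries of DLD-1, an established human colorectal adenocarcinoma line. In 3 derived lines an auxin-inducible degron (AID), a tag that marks a protein for destruction when auxin is added, sat at the N terminus of 1 endogenous lamin: A/C in the AID-Lamin A/C line, B1 in AID-Lamin B1 and B2 in AID-Lamin B2. Lamins form the filament meshwork beneath the nuclear envelope. The fourth line was untagged parental DLD-1 (genotype wild type), which received auxin for the same times so that genes responding to auxin itself could be listed.

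Auxin was dissolved in DMSO and used at 1 mM for 0, 16 or 96 h, and whether the 0 h cells received DMSO is not stated. There were 4 libraries in each of the 12 groups of line and time except AID-Lamin B1 at 0 h and AID-Lamin B2 at 96 h, which had 3 each. Each replicate was 1 well of a 6-well plate, so the tests measure the spread between wells, which may be technical. Whether a tagged line was 1 clone or several is not stated, so that a difference between a tagged line and the parental line at 0 h cannot be told apart from a difference between derived clones.

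As background, snoRNAs guide chemical modification of ribosomal and spliceosomal RNA. Box C/D snoRNAs direct methylation of the ribose by fibrillarin, box H/ACA snoRNAs direct pseudouridylation by dyskerin, and the related small Cajal body RNAs act on spliceosomal RNAs. The snoRNA is trimmed out of the host's introns, while the spliced host RNA is exported, and many host RNAs are destroyed by nonsense-mediated decay once ribosomes meet an early stop codon. Several hosts begin with a run of pyrimidines, the terminal oligopyrimidine (TOP) start also carried by messenger RNAs of ribosomal proteins and translation factors.

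The start sequences are shown because that feature has been used to group host genes with the translation machinery. RefSeq (GRCh38.p14) gave a promoter for 27 of the 31 genes. Each line below holds 40 bases, the 20 before and the 20 from the start onward, with the longest run of C and T in capitals.
SNHG12 (chr1:28581854-28581893, minus strand): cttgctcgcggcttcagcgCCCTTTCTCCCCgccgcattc
SNHG4 (chr5:139274081-139274120, plus strand): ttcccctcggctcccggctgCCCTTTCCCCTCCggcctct
SNHG32 (chr6:31834896-31834935, plus strand): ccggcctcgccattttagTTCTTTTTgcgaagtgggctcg
ZFAS1 (chr20:49278622-49278661, plus strand): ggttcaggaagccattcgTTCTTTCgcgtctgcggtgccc
SNHG19 (chr16:2155339-2155378, minus strand): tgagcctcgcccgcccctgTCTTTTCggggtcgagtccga
SNHG29 (chr17:16438967-16439006, plus strand): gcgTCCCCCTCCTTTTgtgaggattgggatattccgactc
SNHG18 (chr5:9546180-9546219, plus strand): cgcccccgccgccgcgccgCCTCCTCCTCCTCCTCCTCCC
DANCR (chr4:52712374-52712413, plus strand): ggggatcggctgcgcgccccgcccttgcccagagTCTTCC
In the first 5 of these sequences and in SNHG18 the run covered the annotated start, in SNHG29 it lay before it, and in DANCR it lay after it. These sequences are examples. GAS5, not shown, started with A, had a longest run of 4 and had none over the start. A run of at least 8 pyrimidines in this window was found in 8 of the 27 host promoters (29.6%), against 17.5% of all 35116 RefSeq promoters. It was found in 10 of the 13 matched promoters (76.9%) of a list of TOP translation genes. A run of at least 8 that covered the start itself was found in 4 of the 27 hosts (14.8%). It was found in 4.72% of all promoters and in 8 of the 13 TOP promoters (61.5%). The start base was C in 11 of 27 hosts (40.7%) and in 14.7% of all promoters. The E-box letters CACGTG, searched over 300 bases (a palindrome, so both strands at once), were in 2 of the 27 (7.41%) and in 7.26% of all promoters.

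By the snoRNAs annotated inside them, 12 of the 31 genes carried box C/D snoRNAs only, 11 carried box H/ACA snoRNAs only, and 3 (SNHG12, SNHG25 and GAS5) carried both. The 4 genes SNHG10, SNHG20, SNHG21 and SNHG22 carried a small Cajal body RNA, and SNHG28 carried none with a name. The genes lay on 15 chromosomes and spanned 540 bp (SNHG25) to 441754 bp (SNHG14, the long transcript of the Prader-Willi region on chromosome 15, with 84 snoRNA genes of the table). Their GC content ran from 37.3% to 66.5%, with a median of 49.2%. In 17 genes exons overlapped an exon of a gene on the opposite strand, and 14 overlapped another gene on their own strand, such as SNHG3 with RCC1 and SNHG4 with MATR3. The library kit keeps strand, but how strand and shared reads were counted is not given in the sources used here, so the levels of these genes are uncertain.

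Library totals ran from 479446 to 37309421 counts, with a median of 11533218, and 6 libraries held under 5000000. In the shallowest library (AID-Lamin B2, 16 h, replicate 3) 3 counts equalled 6.26 counts per 1000000 of the library total, and in the deepest 0.0804. Levels are given in CPM, counts per 1000000 of a library total that was scaled (TMM, described under the data processing). The host genes together made up 0.151% to 0.286% of a library's counts. The epithelial markers EPCAM (321 to 598 CPM), KRT8 (2791 to 7977 CPM), KRT18, CDH1 and CDX2 were present in every library, whereas the colonic markers VIL1 and LGALS4 were near 0 (medians 1.26 and 0.321 CPM) and KRT20 had a median of 58.6 CPM. Of the fibroblast markers DCN was at 0 in all 46 libraries and COL3A1 had a median of 0, while COL1A1 and PDGFRB had medians of 1.26 and 0.762 CPM. The leukocyte markers PTPRC, CD3E and CD68 and the endothelial marker CDH5 had a median of 0, PECAM1 one of 0.24 CPM, and VWF ran from 2.18 to 17.5 CPM. Some comparisons tracked gene GC content: over 8547 well-expressed genes, the rank correlation of log2 fold change with GC was -0.71 and -0.66 for the AID-Lamin A/C line at 16 and 96 h, -0.48 for AID-Lamin B2 at 16 h, 0.49 for AID-Lamin A/C against parental at 0 h, and 0.01 and 0.02 in the parental line. Genes are not independent replicates, and these values describe the libraries.

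Per kilobase of exon, the highest host genes over the 46 libraries were SNHG3 (72.8 CPM per kb), which carries H/ACA RNAs that act in the cleavage of ribosomal RNA precursors, GAS5 (55.3), SNHG1 (49.0) and SNHG29 (45.2). These 4 genes supplied 48.6% to 69.8% of all host gene counts in a library, with a median of 60.9%. SNHG32 (21.6 CPM per kb) and SNHG19 (20.6) followed, and SNHG14 was lowest of the tested genes at 0.0576 CPM per kb over 122609 bp of annotated exon. The highest and the lowest tested genes differed 1264-fold on this scale. The length used is that of all annotated exons merged, and in 8 of the 31 genes it covers at least 90% of the span. Levels and ranks on this scale therefore depend on the annotation. In 18 of the 29 genes the highest and lowest of the 12 group means were less than 2-fold apart. GAS5 had the smallest median coefficient of variation within a group (8.72%) and SNHG21 the largest (58.2%). The coefficient of variation fell with the mean level across genes (Spearman's rho -0.79 over 29 genes, a description, since a low count carries more counting error).

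**Figure D1:**
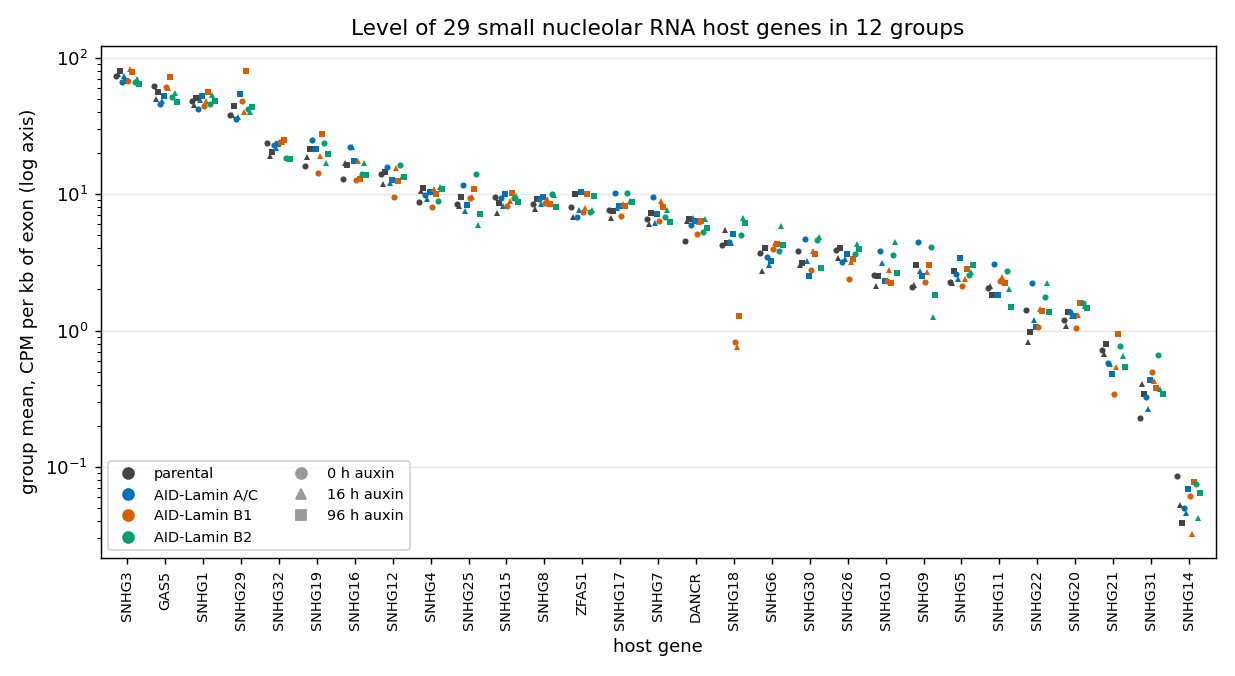
Group mean level of each tested host gene in CPM per kb of exon (log axis), with 12 points a gene, coloured by line and shaped by hours of auxin, ordered by the mean over all libraries. SNHG18 in the 3 AID-Lamin B1 groups sits apart from its other groups, and SNHG14 is lowest at 0.0576 CPM per kb.

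The snoRNAs themselves had counts mainly where they lay outside the host's annotated exons. The exon blocks of a host are all its annotated exons merged. Of the 139 snoRNA and small Cajal body RNA genes of the table within the hosts, 75 lay wholly inside host exon blocks. All 75 had 0 counts in all 46 libraries. Of 6 partly inside host exons, 3 had counts: SNORD12B, with 88 of its 91 bases in a ZFAS1 exon, had 105 counts, and SNORD7 and SNORD115-46 had 1 each. Of 58 outside host exons, 12 had counts, and outside SNHG14 this was 11 of 13. All 11 snoRNAs that RefSeq places in GAS5 lacked a row in the table and lay in its exon blocks. A count of 0 beside an overlapping host exon is therefore not a measure of a snoRNA's level. Examples of both kinds are shown, with the C box (TGATGA), the D box (CTGA) or the ACA box in capitals.
SNORA73B, in SNHG3 (chr1:28508559-28508762, plus strand), outside exons: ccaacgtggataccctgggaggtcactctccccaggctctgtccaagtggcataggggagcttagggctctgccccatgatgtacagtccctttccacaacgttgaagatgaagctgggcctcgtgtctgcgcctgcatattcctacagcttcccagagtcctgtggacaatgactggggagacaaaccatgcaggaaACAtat
SNORD12C, in ZFAS1 (chr20:49278940-49279028, plus strand), outside exons: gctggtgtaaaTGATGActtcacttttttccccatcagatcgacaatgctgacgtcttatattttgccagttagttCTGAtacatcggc
SNORD123, in SNHG18 (chr5:9548836-9548905, plus strand), outside exons: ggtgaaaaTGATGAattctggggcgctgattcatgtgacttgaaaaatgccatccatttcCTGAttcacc
SNORD27, in SNHG1 (chr11:62855012-62855083, minus strand), inside an exon block: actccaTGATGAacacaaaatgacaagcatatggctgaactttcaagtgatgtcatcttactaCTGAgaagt
SNORA73B was the most abundant, with 29360 counts and a mean of 60.2 CPM, SNORD12C had 1637 counts, SNORD123 had 168, and SNORD27 had 0. Within a group SNORA73B varied widely: at 0 h in AID-Lamin B1 it stood at 50.7, 176 and 76.3 CPM. Of the 8 such genes that passed the low-count filter, none reached an adjusted p under 0.05 in any of the 17 comparisons (edgeR quasi-likelihood test, Benjamini-Hochberg over 21484 genes). At most 1 had an unadjusted p under 0.05 in a comparison, and DESeq2 called none. Other ways of processing, some of which tested other snoRNAs, called up to 2 lower in parental cells at 16 h and in AID-Lamin A/C against parental at 0 h, and 1 lower in AID-Lamin B1 at 16 h and against parental at 0 h.

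The 17 comparisons were 16 h and 96 h against 0 h in each line, the difference between each tagged line's change and the parental change, and each tagged line against parental at 0 h. Genes are called here at an adjusted p under 0.05 in edgeR's quasi-likelihood test. In all, 17 calls were made in 12 host genes. These were 7 of the 12 tested hosts of C/D snoRNAs only, 2 of the 3 hosts of both kinds, 2 of the 10 tested hosts of H/ACA snoRNAs only (DANCR and SNHG17), and 1 of the 4 hosts of small Cajal body RNAs (SNHG10). The other 17 tested genes were called in none, and the lowest adjusted p among them was 0.0716 (edgeR, SNHG30, AID-Lamin A/C at 96 h). In single comparisons 0.00465% to 15.8% of all tested genes were called. The share of all genes called in at least 1 of the 17 comparisons was not computed. The kinds of host were not compared by a test, so no difference between kinds is drawn from these counts. The comparisons of a line with its own 0 h libraries, and of the tagged lines with parental cells, share those control libraries. Each difference of changes also uses the 0 h libraries of both lines, with the opposite sign to the comparison of those lines at 0 h.

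**Figure D2:**
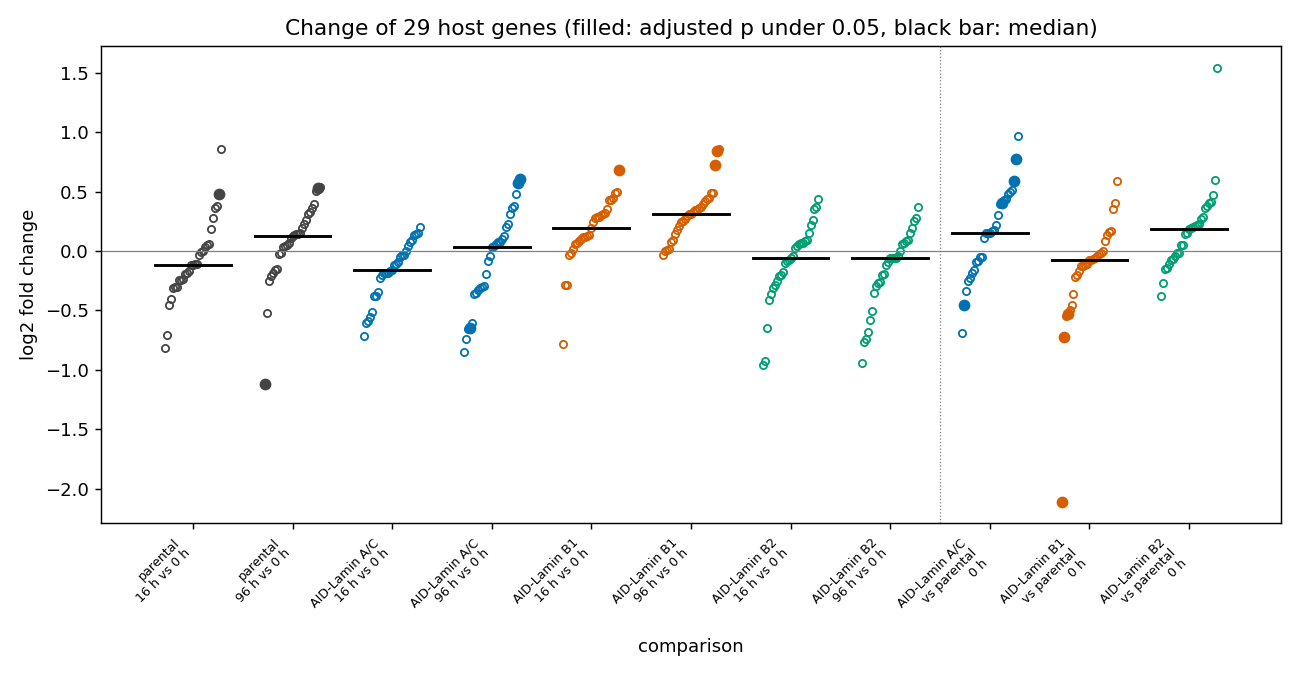
Log2 fold change of the 29 tested host genes, each a circle, in 8 comparisons with 0 h and 3 comparisons of a tagged line with parental at 0 h (right of the dotted line). Filled circles have an adjusted p under 0.05 (edgeR) and black bars are medians; the AID-Lamin B1 circles at 96 h lie above 0 in 28 of 29 genes, and SNHG18 is the lowest AID-Lamin B1 circle at 0 h, at -2.11.

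In parental cells exposed to auxin, 1 host gene was called at 16 h and 2 at 96 h. DANCR, a noncoding RNA first described as a brake on cell differentiation and the host of SNORA26, stood at 41.9, 53.2, 49.1 and 41.6 CPM at 0 h. It stood at 64.6, 66.2, 65.6 and 64.1 CPM at 16 h and at 72.6, 54.6, 69.2 and 72.1 CPM at 96 h. Each auxin library was above every 0 h library. The log2 fold change was 0.48 (SE 0.16, edgeR adjusted p = 0.0428) at 16 h and 0.53 (SE 0.16, adjusted p = 0.0283) at 96 h. Both lay close to the threshold. At 16 h the call was lost without any 1 of the 8 libraries other than parental 0 h replicate 2 (log2 0.44 to 0.61 over the 8), and with RLE scaling, library size alone, DESeq2 or the GC and length trend removed (0.32 to 0.39). At 96 h it was lost without parental 0 h replicate 1 or 4 or 96 h replicate 1, 3 or 4 (0.48 to 0.66 over the 8), and with library size alone or the GC correction (0.44 and 0.42).

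SNHG14 was lower in the parental line at 96 h. Its 0 h libraries held 10.4, 7.92, 12.2 and 11.8 CPM, and its 96 h libraries 6.70, 1.80, 4.82 and 5.70 CPM. The groups did not overlap, and the log2 fold change was -1.12 (SE 0.30, edgeR adjusted p = 0.0149). Without parental 96 h replicate 2, the lowest library, it was -0.79 with an adjusted p of 0.106 in the same test. UBE3A, the gene whose exons lie opposite the end of SNHG14, was not called (edgeR adjusted p = 0.183). Over all genes 9.01% were called at 16 h and 7.78% at 96 h, against 3.45% and 6.9% of the tested host genes. The median log2 fold change of the hosts was -0.11 at 16 h and 0.12 at 96 h, beside -0.04 and -0.03 over all tested genes. Over the 8 other ways of processing, the second of these ran from -0.01 to 0.18. In such bulk libraries fewer cells expressing a gene and less of its RNA per cell cannot be told apart.

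In the AID-Lamin A/C line no host gene was called at 16 h, where 1.78% of all genes were. There 4 of 29 hosts had an unadjusted p under 0.05 in edgeR, beside 4296 of all 21484 tested genes. DESeq2 called 2 hosts, beside 5.54% of all genes. At 96 h 3 hosts were called (10.34%, beside 15.4% of all genes). SNHG29, which carries SNORD49A, SNORD49B and SNORD65, stood at 185, 354, 393 and 350 CPM at 0 h and at 474, 554, 501 and 424 CPM at 96 h. The groups did not overlap, and the fold change was 0.60 on the log2 scale (SE 0.19, edgeR adjusted p = 0.0219). The 0 h library at 185 CPM, replicate 1, held 3318819 counts, and without it the log2 fold change was 0.43 (adjusted p = 0.152). Without 96 h replicate 2 or 3 it was 0.54 (adjusted p = 0.0828) or 0.59 (adjusted p = 0.0519). Fitted on the compared groups alone, SNHG29 had an adjusted p of 0.0841 in edgeR and ZFAS1 one of 0.0536.

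ZFAS1, which starts next to the start of ZNFX1 on the other strand and carries the SNORD12 family, gave the lowest adjusted p of the 3. Its levels were 41.8, 63.1, 64.2 and 59.2 CPM at 0 h and 73.9, 94.6, 95.4 and 78.9 CPM at 96 h, without overlap. The log2 fold change was 0.57 (SE 0.15, edgeR adjusted p = 0.0059), and it was 0.48 to 0.64 with any 1 library left out, each past the threshold. With the GC and length trend removed it was 0.81 (adjusted p = 0.0023). In the parental line at 96 h ZFAS1 stood at 79.3, 75.0, 89.2 and 91.4 CPM, against 74.2, 55.1, 65.5 and 75.2 at 0 h, and was not called. The difference between the changes of the AID-Lamin A/C and parental lines was not called for ZFAS1 or for SNHG29.

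SNHG10, host of SCARNA13, was the third gene, with 35.9, 16.1, 15.1 and 15.8 CPM at 0 h and 12.1, 12.2, 12.5 and 13.3 CPM at 96 h. The log2 fold change was -0.65 (SE 0.22, edgeR adjusted p = 0.0398). It rested on 0 h replicate 1: without that library it was -0.31 with an adjusted p of 0.39. The call was also lost without 96 h replicate 1, 2, 3 or 4 (adjusted p 0.0676, 0.0915, 0.0804 and 0.0603), and under 5 other ways of processing (adjusted p 0.0588 to 0.244), so that it stood in 6 of 16 alternatives. The median log2 fold change of the 29 hosts at 96 h was 0.03, equal to the 0.03 of all tested genes, with 15 above and 14 below 0. Leaving out 0 h replicate 2, the deepest library of that group, raised the number of called hosts from 0 to 4 at 16 h and from 3 to 9 at 96 h. The share of all genes called without that library is not given here, so these counts are not read as a trait of the hosts.

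In the AID-Lamin B1 line most host genes had a higher level under auxin than at 0 h, although few passed the test singly. At 96 h 28 of the 29 tested hosts had a positive log2 fold change, as had 11713 of all 21484 tested genes. The median was 0.31 beside 0.04 for all tested genes, and 0.28 to 0.40 over 8 other ways of processing the counts, in which 25 to 29 were positive. In parental cells at 96 h 20 of 29 hosts were positive. Set against that parental change, 22 of 29 were positive in AID-Lamin B1, with a median of 0.27 beside 0.03. At 16 h 24 of 29 were positive against the line's own 0 h libraries, as were 10456 of all tested genes, with medians of 0.19 and -0.01. In parental cells at 16 h 9 of 29 hosts were positive. Set against that change, 23 of 29 were positive in AID-Lamin B1, with a median of 0.23 beside 0.02. Lists of related genes given further below had medians of 0.09 to 0.27 at 16 h. The directions of the hosts in the AID-Lamin B1 line share 1 set of 0 h libraries and are given as a description. Replicate 2 of that set held 1452968 counts and was its lowest library for SNHG29, SNHG19 and SNHG12, whose values follow. The summed level of the 31 genes was 1816 ± 133 CPM (SD, n = 3) at 0 h, 1947 ± 149 (SD, n = 4) at 16 h and 2373 ± 124 (SD, n = 4) at 96 h. In the other 11 groups the mean sum lay between 1753 and 2018 CPM. SNHG29 supplied 51.5% of the 557 CPM difference between 96 and 0 h, and with GAS5, SNHG1 and SNHG3 it supplied 77.9%.

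At 96 h 2 hosts were called (6.9%, beside 3.17% of all genes), both higher. SNHG29 stood at 408, 350 and 548 CPM at 0 h and at 733, 755, 754 and 647 CPM at 96 h. This was the highest group mean of any host gene in the study, 722 ± 51.2 CPM (SD, n = 4), and it did not overlap the 0 h libraries. The log2 fold change was 0.73 (SE 0.21, edgeR adjusted p = 0.0352). The call was lost without 0 h replicate 1 (0.68, adjusted p = 0.14) or 2 (0.60, adjusted p = 0.259), or without 96 h replicate 1, 2 or 3 (0.72, 0.71 and 0.71).

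SNHG19, a short gene of 614 bp that carries SNORD60, stood at 10.4, 6.64 and 9.57 CPM at 0 h and at 17.5, 14.5, 17.4 and 18.2 CPM at 96 h. The groups did not overlap, with a log2 fold change of 0.84 (SE 0.21, edgeR adjusted p = 0.0114). Without 0 h replicate 2 it was 0.76 (adjusted p = 0.0584), and without 0 h replicate 3 it was 0.85 (adjusted p = 0.0721). At 16 h 1 host was called (3.45%, beside 1.5% of all genes). SNHG12, host of SNORA44, SNORA61, SNORA16A and SNORD99, stood at 42.6, 35.8 and 43.4 CPM at 0 h and at 83.5, 59.1, 60.2 and 62.5 CPM at 16 h. Its log2 fold change was 0.68 (SE 0.16, edgeR adjusted p = 0.0198), and the call was lost without any 1 of the 3 libraries at 0 h (0.61 to 0.73) or without 16 h replicate 1 (0.58, adjusted p = 0.0659), and under RLE scaling (0.60, adjusted p = 0.059) or library size alone (0.57, adjusted p = 0.0626). At 96 h SNHG12 stood between 48.8 and 58.5 CPM and was not called.

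In the AID-Lamin B2 line no host gene was called at 16 h or at 96 h, where 1.81% and 3.55% of all genes were. Of the 29 hosts 4 and 2 had an unadjusted p under 0.05 in edgeR, beside 3563 and 3449 of all 21484 tested genes. No host was called there with any 1 library left out, nor by DESeq2. The median log2 fold changes were -0.06 and -0.06, beside -0.02 and -0.0024 for all tested genes.

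**Figure D3:**
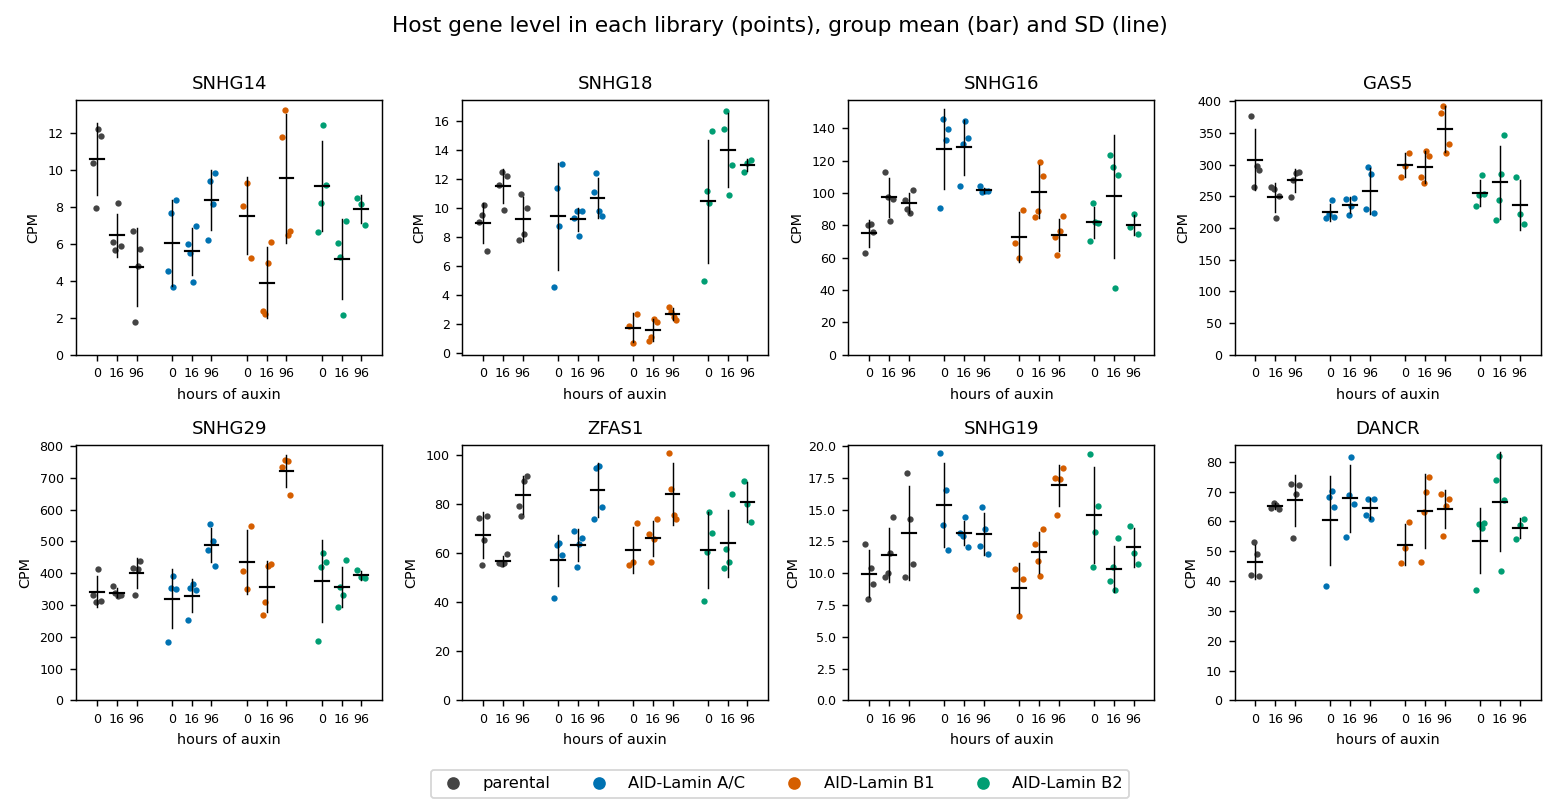
Level in CPM of 8 host genes in each of the 46 libraries (points), with group means (bars) and SD (vertical lines), by hours of auxin within each line. SNHG18 in the 11 AID-Lamin B1 libraries lies between 0.664 and 3.19 CPM, and SNHG29 in the AID-Lamin B1 line at 96 h lies between 647 and 755 CPM.

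The change in a tagged line was set against the change in parental cells to separate it from the response to auxin alone. At 96 h SNHG14 was the single host called in the AID-Lamin A/C line (3.45% of the tested hosts, beside 7.4% of all genes). It stood at 4.53, 7.69, 3.65 and 8.37 CPM at 0 h and at 6.21, 9.39, 8.15 and 9.83 CPM at 96 h in that line, so that the groups overlapped there, while the parental line moved the other way. The difference of the 2 changes was 1.50 on the log2 scale (SE 0.42, edgeR adjusted p = 0.0222). Without parental 96 h replicate 2 it was 1.17 (adjusted p = 0.0838), and without AID-Lamin A/C 96 h replicate 2 it was 1.44 (adjusted p = 0.0501). The call was past the threshold in 22 of 24 alternatives. At 0 h SNHG14 was at -0.69 on the log2 scale in AID-Lamin A/C against parental cells, without a call (edgeR adjusted p = 0.104). Those 0 h libraries are also part of the difference. At 16 h no host was called in the AID-Lamin A/C line (0.116% of all genes), and none was called in AID-Lamin B1 at 16 or 96 h (0.0279% and 1.04%) or in AID-Lamin B2 (0.00465% and 0.368%). In these 5 comparisons 1, 4, 4, 1 and 1 of 29 hosts had an unadjusted p under 0.05 in edgeR. Of all 21484 tested genes 2651, 1340, 3570, 1195 and 2726 had one, in the same order. DESeq2 called 0, 1, 1, 0 and 0 hosts.

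Before auxin the tagged lines already differed from parental cells in some hosts. In the AID-Lamin A/C line 4 were called (13.79%, beside 15.8% of all genes). SNHG16, which carries the SNORD1 family, stood at 63.2, 80.2, 81.1 and 75.6 CPM in parental cells and at 91.0, 146, 133 and 140 CPM in AID-Lamin A/C cells, without overlap. The log2 difference was 0.77 (SE 0.16, edgeR adjusted p = 0.000609), and all 16 alternatives kept it past the threshold. GAS5, named for its accumulation on growth arrest, stood at 378, 265, 298 and 292 CPM in parental cells and at 216, 222, 245 and 218 CPM in AID-Lamin A/C cells. The groups did not overlap, and the log2 difference was -0.45 (SE 0.13, edgeR adjusted p = 0.0096). Without parental replicate 1, the highest library, it was -0.30 with an adjusted p of 0.124, and without the low-count filter -0.41 with 0.136.

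SNHG17 and SNHG19 were also called in that comparison, but their groups overlapped. SNHG17, host of the SNORA71 family, had 104, 79.3, 87.2 and 91.6 CPM in parental cells and 176, 94.2, 109 and 106 CPM in AID-Lamin A/C cells (log2 0.41, SE 0.15, edgeR adjusted p = 0.0489). SNHG19 had 12.3, 8.01, 10.4 and 9.18 CPM in parental cells and 19.4, 13.8, 16.5 and 11.8 CPM in AID-Lamin A/C cells (log2 0.59, SE 0.19, edgeR adjusted p = 0.0286). For both, AID-Lamin A/C replicate 1 was highest: without it the log2 differences were 0.21 (adjusted p = 0.299) and 0.51 (adjusted p = 0.0683). Without parental replicate 2 or 4 both calls were also lost, as was that of SNHG17 without parental replicate 3 (adjusted p = 0.0999) and that of SNHG19 without AID-Lamin A/C replicate 3 (adjusted p = 0.0741). With the GC and length trend removed they were 0.25 and 0.40 and neither was called. This comparison was one of those that tracked GC content, and SNHG17 and SNHG19 have 51.6% and 56.1% GC.

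In the AID-Lamin B1 line at 0 h 3 hosts were lower than in parental cells (10.34%, beside 4.05% of all genes). SNHG18 showed the largest difference of any called host gene. It is a long intergenic RNA gene (chr5:9546170-9550725, plus strand) that holds SNORD123 in its intron. Parental libraries held 9.02, 9.49, 10.2 and 7.01 CPM, and AID-Lamin B1 libraries 1.88, 0.664 and 2.67 CPM. The library at 0.664 CPM, replicate 2, held 1452968 counts, and 3 counts in it equal 2.06 per 1000000 of its unscaled total. The log2 difference was -2.11 (SE 0.30, edgeR adjusted p = 1.23e-06), or 4.32-fold lower, and all 15 alternatives kept it past the threshold. The level stayed low under auxin, at 0.790, 1.07, 2.33 and 2.12 CPM at 16 h and 3.19, 2.80, 2.48 and 2.29 CPM at 96 h, below each of the 35 libraries of the other lines.

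SNORD123 was low in the same line. Summed over times, it had 8 counts in the 11 AID-Lamin B1 libraries, or 0.0576 per 1000000 of the unscaled library totals. The exact 95% Poisson interval was 0.0249 to 0.114, which covers counting error only. On the same scale parental libraries had 39 counts (0.301, 0.214 to 0.411), AID-Lamin A/C 69 (0.325, 0.253 to 0.412) and AID-Lamin B2 52 (0.372, 0.278 to 0.488). The AID-Lamin B1 interval lay below the other 3. SNORD123 did not pass the low-count filter and was not tested across libraries.

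The genes around SNHG18 were examined after its value had been seen. Within 2 Mb on either side, 17 of the 18 other tested genes had a negative log2 difference between AID-Lamin B1 and parental cells at 0 h, with a median of -1.05, and 11 were called lower and none higher (edgeR). SEMA5A, which codes for a semaphorin, lies directly upstream on the other strand (chr5:9035033-9546075, minus strand). It was at -2.73 (SE 0.16, edgeR adjusted p = 4.06e-18), and its antisense RNA SEMA5A-AS1 at -2.77 (SE 0.46). On the other side CCT5, a subunit of the cytosolic chaperonin, was at -0.98 (SE 0.12) and DAP at -1.32 (SE 0.11). All 4 were called in each of the 15 alternatives, in which 9 to 14 of the neighbours were called lower. For the distances each gene was placed by its lowest coordinate, whatever its strand. Before SNHG18 the medians were -0.82 over 37 genes more than 6 Mb away, -2.08 over 3 genes 4 to 6 Mb away and -1.07 over 7 genes 2 to 4 Mb away. After it they were -0.93 over 8 genes at 4 to 6 Mb, -0.53 over 9 genes at 6 to 10 Mb, -2.44 over 4 genes at 10 to 20 Mb and -0.12 over 58 genes at 20 to 30 Mb, so that they did not change evenly with distance.

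For the other 28 tested hosts the median log2 difference of the neighbours within 2 Mb lay between -0.16 and 0.17 in the same comparison. In the AID-Lamin A/C and AID-Lamin B2 lines the neighbours of SNHG18 had medians of 0.10 and 0.27, with 5 and 4 of 18 called lower and 2 and 3 called higher. For 8 genes, SEMA5A among them, the lowest coordinate lay within 2 Mb before that of SNHG18. Their median was -1.64 in AID-Lamin A/C and -1.16 in AID-Lamin B2, with 5 and 3 called lower, beside -2.86 with 7 called lower in AID-Lamin B1. Over the 10 genes within 2 Mb after SNHG18, the medians were 0.51, 0.33 and -0.89 in the same order of lines. The 3 comparisons share the 4 parental libraries at 0 h, and the difference between the lines was not tested. SNHG18 itself was not called in either line (edgeR adjusted p = 0.711 and 0.555). Whether the low SNHG18 level and the low levels of its neighbours in the AID-Lamin B1 line have 1 source was not tested.

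**Figure D4:**
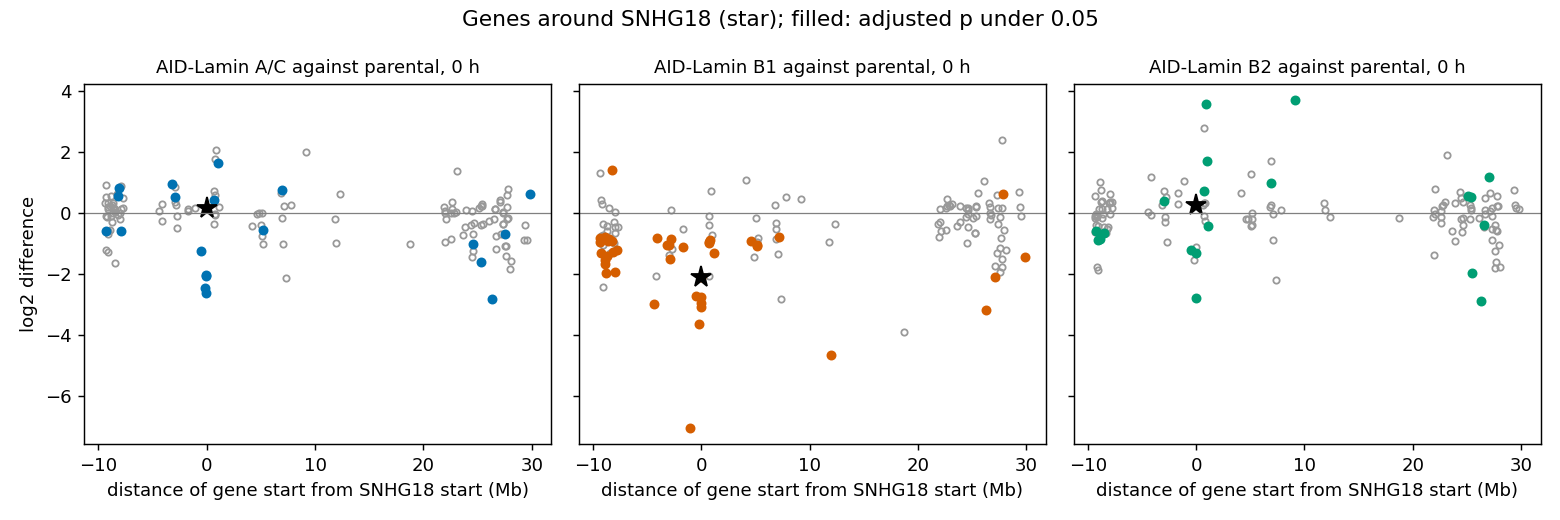
Log2 difference of each tested gene between a tagged line and parental cells at 0 h against the distance of its lowest coordinate, whatever the strand, from that of SNHG18 in Mb. SNHG18 is a star and genes of adjusted p under 0.05 are filled. In the AID-Lamin B1 panel 17 of the 18 genes within 2 Mb lie below 0, and the median within 2 Mb is -1.05; in the other 2 panels it is 0.10 and 0.27.

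SNHG26, which carries SNORD93, stood at 29.6, 30.8, 26.9 and 30.0 CPM in parental cells and at 17.7, 17.9 and 18.0 CPM in AID-Lamin B1 cells at 0 h, without overlap (log2 -0.72, SE 0.15, edgeR adjusted p = 0.00129). The call was lost only without the low-count filter among 15 alternatives (-0.65, adjusted p = 0.0941). SNHG12 was at 70.3, 46.9, 61.3 and 61.1 CPM in parental cells, all above the 3 AID-Lamin B1 libraries at 42.6, 35.8 and 43.4 CPM (log2 -0.53, SE 0.16, edgeR adjusted p = 0.0499). Its adjusted p sat at the threshold, and the call was lost without parental replicate 1, 3 or 4 or without any 1 AID-Lamin B1 library (log2 -0.60 to -0.42 over the 7 libraries). The same 3 libraries were the base of its higher level at 16 h. In the AID-Lamin B2 line no host was called against parental at 0 h, where 8.21% of all genes were. There 5 of 29 hosts had an unadjusted p under 0.05 in edgeR, beside 4548 of all 21484 tested genes. DESeq2 called no host, and leaving out parental replicate 1 gave 1 call.

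GAS5 and SNHG1 were among the 4 highest hosts per kilobase. SNHG1, host of a row of C/D snoRNAs, had group means from 169 ± 34.0 CPM (SD, n = 4, AID-Lamin A/C, 0 h) to 225 ± 26.5 (SD, n = 4, AID-Lamin B1, 96 h). It was called in no comparison, with a lowest adjusted p of 0.0757 (edgeR, AID-Lamin A/C at 96 h). Its libraries ran from 184 to 211 CPM in parental cells at 0 h, from 154 to 193 at 16 h and from 199 to 205 at 96 h. GAS5 group means ran from 225 ± 13.3 CPM (SD, n = 4, AID-Lamin A/C, 0 h) to 356 ± 36.3 CPM (SD, n = 4, AID-Lamin B1, 96 h). In AID-Lamin B1 it stood at 281, 299 and 319 CPM at 0 h and at 382, 392, 318 and 333 CPM at 96 h, which touched the 0 h range, and it was not called there.

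For 5 of the called hosts the test of a gene with exons on the opposite strand is given here: UBE3A for SNHG14, ZNFX1 for ZFAS1, LRRC75A for SNHG29, TRNAU1AP for SNHG12 and GLRX5 for SNHG10. In none of the 8 comparisons where 1 of these hosts was called was its partner called, and the lowest adjusted p was 0.0878 (edgeR, ZNFX1 in AID-Lamin A/C at 96 h).

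Genes for the proteins that assemble and use snoRNAs were described by the same test. In parental cells at 96 h 6 of 18 snoRNP core and assembly genes rose and none fell, as did 3 of 17 nonsense-mediated decay genes, 7 of 28 protein-coding snoRNA hosts and 2 of 15 tested TOP translation genes. Of all tested genes 3.94% were higher, and 1 of 29 SNHG-type hosts was higher and 1 lower. Over the 8 other ways of processing, 3 to 8 snoRNP genes, 2 to 5 decay genes, 3 to 9 coding hosts and 1 to 5 TOP genes were higher, with up to 1 TOP gene lower. RBM8A, a core protein of the exon junction complex, rose by 0.80 on the log2 scale (SE 0.12, edgeR adjusted p = 1.78e-05), and HSPA8, a chaperone gene that carries C/D snoRNAs, by 0.61 (SE 0.14, adjusted p = 0.0042). Both were called in all 16 alternatives. Some genes, such as NOP56 and DKC1, belong to 2 of these lists.

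In AID-Lamin A/C cells at 0 h 12 of 18 snoRNP genes, 5 of 17 decay genes, 15 of 28 coding hosts and 7 of 15 TOP genes were higher than in parental cells, beside 8.71% of all tested genes, and 2 coding hosts were lower. The other ways of processing gave 5 to 14, 2 to 8, 8 to 17 and 4 to 8 higher, in that order. NCL, the nucleolar protein nucleolin, was 1.15 higher on the log2 scale (SE 0.18, edgeR adjusted p = 1.55e-05), and PPAN, a ribosome assembly gene, 1.11 higher (SE 0.30, adjusted p = 0.008). With the GC and length trend removed PPAN was at 0.70, and with the compared groups alone its adjusted p was 0.0578. The median log2 difference of the snoRNP list was 0.49, beside 0.16 for the SNHG-type hosts and -0.06 for all tested genes. In AID-Lamin B2 cells at 0 h 6 snoRNP genes, 10 coding hosts and 3 TOP genes were higher and 1 coding host lower, with NOP56, a core protein of C/D particles, at 0.70 (SE 0.10, edgeR adjusted p = 4.85e-06) and NPM1, a nucleolar chaperone, at 0.66 (SE 0.12), while no SNHG-type host was called. Of all tested genes 3.91% were higher there, and the other ways of processing gave 3 to 7 snoRNP genes, 3 to 11 coding hosts and 1 to 6 TOP genes. In AID-Lamin B1 cells at 0 h the calls in these lists were NCL (0.73) and EIF4B (0.43). NCL lost its call without AID-Lamin B1 replicate 1 or 2 (edgeR adjusted p = 0.055 and 0.0874), and EIF4B without replicate 3 (adjusted p = 0.111).

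At 96 h in the AID-Lamin A/C line 1 snoRNP gene, 3 decay genes and 2 TOP genes fell, and 3 coding hosts rose and 3 fell, beside 6.74% of all tested genes higher and 8.64% lower. The other ways of processing gave 1 to 2, 0 to 3 and 1 to 3 lower in the first 3 lists, with up to 4, 1 and 2 higher, and 1 to 7 coding hosts higher and 1 to 6 lower. EIF4A2, a helicase of translation initiation, rose by 0.65 (SE 0.12, edgeR adjusted p = 0.000222), or by 0.36 with the GC and length trend removed. EEF1D, an elongation factor subunit, was at -0.76 (SE 0.18, adjusted p = 0.003), and at -0.28 (adjusted p = 0.16) with the GC and length trend removed and -0.48 (adjusted p = 0.055) without 0 h replicate 1. Set against the parental change, 5 snoRNP, 4 decay, 6 coding host and 2 TOP genes were lower, beside 4.3% of all tested genes, and none was higher. The other ways of processing gave 0 to 6, 2 to 5, 5 to 10 and 1 to 3 lower, with up to 3 coding hosts higher. Those lower included NCL at -1.14 (SE 0.26, edgeR adjusted p = 0.0055) and DHX34, a decay helicase, at -1.02 (SE 0.20), which was -0.44 with the GC correction. The AID-Lamin A/C and parental libraries at 0 h enter this difference with the opposite sign to their comparison at 0 h. The 2 results are therefore not independent. NCL was 1.15 higher at 0 h, and the snoRNP median was 0.49 at 0 h and -0.43 for this difference. The rank correlation of this difference with GC was -0.63. In AID-Lamin B1 at 96 h 2 snoRNP genes and 3 coding hosts rose, beside 1.05% of all tested genes, and no gene of these lists fell. The other ways of processing gave 0 to 4 and 1 to 5 higher, with up to 2 coding hosts and 1 TOP gene lower. EIF4A1 was at 0.80 (SE 0.20, edgeR adjusted p = 0.0108) and NOP56 at 0.46 (SE 0.11, adjusted p = 0.0115). Without 0 h replicate 1 EIF4A1 had an adjusted p of 0.0848, as 0.0537 without 96 h replicate 2, and NOP56 had 0.121 and 0.0724 without 0 h replicate 2 and 3. NOP56 also lost its call without libraries under 5000000 counts (0.0605) and without the low-count filter (0.278), and was past the threshold in 11 of 15 alternatives. The median of the snoRNP list there was 0.01 and that of the coding hosts -0.0048, beside 0.31 for the SNHG-type hosts. Those of the decay and TOP genes were 0.09 and 0.04. At 16 h in AID-Lamin B1 the medians were 0.27 for the snoRNP list, 0.27 for the decay genes, 0.21 for the coding hosts and 0.09 for the TOP genes. That of the SNHG-type hosts was 0.19.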

How the data were processed

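Counts of reads per gene were made by the authors and deposited as 1 table of raw, whole-number counts for all libraries, per the file headers. Per the submitters' processing notes the tools included STAR 2.7.10a, SAMtools 1.10, deepTools 3.4.5, featureCounts 1.6.4 and DESeq2 1.40.2 with build GRCh38. The annotation release, the strand setting and the handling of reads shared by genes are not given in the sources used here. One gene whose entry was split across 3 lines could not be read and is absent. Symbols came from a table of gene identifiers and symbols, which named 67.4% of the genes, exon positions from the deposited table, and GC content from GENCODE transcripts.

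Levels are CPM of the library's total over the genes that passed the low-count filter, multiplied by its TMM factor. The value of 3 counts, the share of the host genes and the summed SNORD123 levels use the unscaled total of all genes. Tests were run with edgeR 4.0.16 in R 4.3.3: filterByExpr, TMM scaling and the quasi-likelihood F test, two-sided, with 1 fit over 46 libraries in 12 groups and Benjamini-Hochberg adjustment over 21484 genes. The scripts were tested on simulated data. The host genes, the other gene lists and the rules were chosen with earlier results of these data known. Full values are given for GAS5, ZFAS1, DANCR, SNHG1 and every called host (at most 3 in each direction of a comparison), and at most 2 called genes of the other lists are named in a comparison. The genes around SNHG18 were chosen after its values were seen.

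The alternatives scaled by RLE or by library size alone, dropped the low-count filter, used DESeq2 1.42.0, added a replicate block, fitted the compared groups alone, set aside libraries under 5000000 counts, removed the trend on GC content and length, or left out each library in turn. The 66 pairs of replicate libraries within groups differed by more than sampling noise (lowest chi-square per degree of freedom 3.68). Replicate numbers were not used to pair wells.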

Additional observations from a re-analysis of the deposited data

Results flagged for a closer look

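Levels were examined for single libraries that stood far from the rest of their group, in 130 sets of 4 libraries covering 13 host genes, and 12 sets held such a library. Chance alone gives about 1 in 20 such sets. The high libraries were parental 0 h replicate 1 for SNHG1 (211 CPM, others 184 to 189), AID-Lamin A/C 0 h replicate 1 and AID-Lamin B2 0 h replicate 1 for SNHG10 (35.9 CPM, others 15.1 to 16.1, and 30.5 CPM, others 14.3 to 16.8), AID-Lamin B1 16 h replicate 1 for SNHG12 (83.5 CPM, others 59.1 to 62.5) and for SNHG17 (126 CPM, others 89.4 to 93.3), parental 16 h replicate 3 for SNHG14 (8.18 CPM, others 5.69 to 6.10), and parental 16 h replicate 4 for ZFAS1 (59.7 CPM, others 55.7 to 56.0). The low libraries were AID-Lamin B2 16 h replicate 3 for SNHG16 (41.3 CPM, others 111 to 123), AID-Lamin B2 16 h replicate 1 for SNHG12 (51.8 CPM, others 58.7 to 59.7), AID-Lamin B1 16 h replicate 1 for SNHG26 (22.8 CPM, others 24.2 to 24.5), and AID-Lamin B2 0 h replicate 1 for SNHG29 (186 CPM, others 419 to 465) and for DANCR (37.1 CPM, others 58.0 to 59.6). AID-Lamin B2 0 h replicate 1 held 1894447 counts and AID-Lamin B2 16 h replicate 3 held 479446, the smallest total of all. The part of depth in these values was not tested. SNHG14 was the host gene whose change at 96 h differed between the AID-Lamin A/C and parental lines, by 1.50 on the log2 scale in edgeR's test of that difference.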

How the results depend on the processing

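The number of called host genes moved with the processing in most comparisons, and no direction of a called gene turned. The main fit gave 1, 2, 0, 3, 1 and 2 calls in the parental line, AID-Lamin A/C and AID-Lamin B1 (16 and 96 h each). The share of all tested genes called in the same setting is given in brackets. RLE scaling gave 3 in parental cells at 16 h (8.46%) and 0 in AID-Lamin B1 at 16 h (1.35%). Library size alone gave 3 and 1 in parental cells (7.94% and 7.58%) and 0 in AID-Lamin B1 at 16 h (1.4%). DESeq2 gave 3 in parental cells at 16 h (9.83%) and 2 and 6 in AID-Lamin A/C (5.54% and 19.5%). The compared groups alone gave 7 in parental cells at 16 h (22.5%), 0 in AID-Lamin A/C at 96 h (6.22%) and 4 in AID-Lamin B1 at 96 h (8.25%). In that setting 27, 28 and 29 hosts were tested in these comparisons. Without libraries under 5000000 counts there were 2 and 4 in parental cells (12.3% and 11.7%) and 2 in AID-Lamin B1 at 16 h (4.63%). With the GC and length trend removed there were 5 and 1 in parental cells (13.3% and 14.4%) and 6 in AID-Lamin B1 at 96 h (7.09%).

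The change in AID-Lamin A/C minus that in parental cells at 96 h had 1 call. DESeq2, the compared groups alone and the GC correction gave 2 (9.24%, 7.41% and 8.09% of all genes). The libraries of at least 5000000 counts gave 3 (7.73%). For AID-Lamin B1 minus parental (0 calls at both times), DESeq2, the compared groups alone and the GC correction gave 1 at each time. Of all genes these called 0.14%, 0.206% and 0.251% at 16 h and 2.22%, 4.14% and 3.46% at 96 h. Library size alone (1.7%) and no low-count filter (0.392%) gave 1 at 96 h. At 0 h against parental, AID-Lamin A/C (4 calls) had 1 without the low-count filter (5.91% of all genes). It had 2 with the compared groups alone (9.06%) or the GC correction (19.9%). AID-Lamin B1 (3 calls) had 1 without the low-count filter (1.55%). AID-Lamin B2 (0 calls) had 1 with library size alone (8.46%) and 2 with the GC correction (13.6%). The causes were not tested.

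Leaving out 1 library at a time gave 0 to 2 and 1 to 2 calls in parental cells at 16 and 96 h, 0 to 4 and 1 to 9 in AID-Lamin A/C, 0 to 1 and 0 to 3 in AID-Lamin B1, and 0 in AID-Lamin B2. It gave 0 to 2 for AID-Lamin A/C minus parental at 96 h, 0 to 1 for AID-Lamin B1 minus parental at 96 h, and 2 to 5, 2 to 3 and 0 to 1 at 0 h for AID-Lamin A/C, B1 and B2. The shares of all genes called with a library left out are not given here. Replicate numbers were not taken to pair the wells, since no label says so and not every pair's correlation was over 0.1: the 243 correlations of same-numbered libraries ran from -0.71 to 0.84 with a median of 0.08, 118 were over 0.1, and 25 of 46 libraries correlated best with their own number, a hint from the data that some wells share one. A fit with the replicate number as a block gave the same counts in all 17 comparisons, for example 1 at 16 h and 2 at 96 h in parental cells. In the shallowest library a gene under 6.26 counts per 1000000 of the unscaled library total cannot be told from 3 counts or fewer.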
